A study of Mus musculus with 20 samples.

Results

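Rod phototransduction genes were followed in retinas that lack Nrl, the transcription factor that sends photoreceptor precursors to the rod fate. The list held 9 genes: Pde6a, Pde6b, Pde6g, Gnat1, Gngt1, Cnga1, Cngb1, Slc24a1 and Reep6. They were chosen by name, as rod genes on an exon array, with earlier results of these data known. Their members are the probe sets that the array's gene table assigns to them. That table names 92 probe sets for 7 of the 9 genes, out of 194293 probe sets and 15800 named genes in all. It names none for the channel subunit genes Cnga1 and Cngb1, which were not analysed here. All 20 samples were retinas of Nrl-/- mice of the C57Bl/6J strain at 1, 2, 4, 6 or 10 months after birth, with 4 mice per age, 1 array per mouse and both retinas of a mouse in 1 sample. The loss of Nrl was shared by every group. No wild-type retina was analysed here, so an effect of the genotype and normal maturation cannot be told apart. Whole retina was measured, so fewer cells of a type and less RNA per cell cannot be told apart either.

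In a rod, light leads to the activation of transducin, whose alpha subunit is encoded by Gnat1 and gamma subunit by Gngt1. Transducin releases the inhibitory subunit (Pde6g) from the catalytic subunits (Pde6a and Pde6b) of the cGMP phosphodiesterase. The fall in cGMP closes a cation channel (Cnga1 and Cngb1), and the exchanger encoded by Slc24a1 clears calcium. Reep6 encodes a rod protein of the endoplasmic reticulum that acts in membrane traffic. Cones use a parallel set: Gnat2, Gngt2, Pde6c, Pde6h, Cnga3, Cngb3 and Slc24a2. In mice that lack Nrl the photoreceptors take on a cone-like identity.

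Levels are log2 intensities, the median polish of a gene's probe sets on each array. Levels of different genes depend on their probes and were not tested against each other. To see which rod genes stood above background, each was placed among 869 chemosensory receptor genes (olfactory, vomeronasal and bitter taste receptors), known for their use in sensory epithelia outside the eye. The median of these receptor genes lay between 3.46 and 4.11 on the arrays and their 95th percentile between 5.67 and 6.53. All 7 rod genes were above that percentile of the same array on all 20 arrays. Gnat1 was nearest to it. Its level was between 6.27 and 6.70, from percentile 96.0 to 99.1 of the receptor genes, and 1 of its 10 probe sets was above the 95th percentile of receptor probe sets on every array. Nrl itself was above the receptor percentile on 18 arrays (5.97 to 6.53) and Nr2e3, the rod nuclear receptor gene that acts downstream of Nrl, on 0 (5.10 to 6.26). By single probe sets, 1 of 6 for Nrl and 2 of 8 for Nr2e3 were above the percentile of receptor probe sets on every array. Where the Nrl probe sets lie relative to the deletion is not known from the labels, and their level is no check of the genotype.

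Pde6a, Pde6g and Reep6 were far above background. Pde6g lay between 11.53 and 11.93, Pde6a between 10.13 and 10.72 and Reep6 between 9.91 and 10.56, each above all receptor genes on every array. All 23 probe sets of Pde6a, all 5 of Pde6g and all 9 of Reep6 passed the 95th percentile of receptor probe sets on every array. Pde6b, Gngt1 and Slc24a1 were intermediate: 21 of 24, 3 of 5 and 9 of 16 probe sets passed. A stricter background, the 95th percentile of 19 genes of liver, testis, pancreas and kidney on the same array (6.68 to 7.48), was passed by Gnat1 on 0 arrays, by Slc24a1 on 17 and by Gngt1 on 19, and by Pde6a, Pde6b, Pde6g and Reep6 on all 20. The cone counterparts passed it on all 20 arrays. By single probe sets fewer passed, set against the 95th percentile of the probe sets of these tissues on every array. For Pde6b 14 of 24 did, for Gngt1 2 of 5, for Slc24a1 2 of 16 and for Gnat1 1 of 10. All 23 for Pde6a, all 5 for Pde6g and 8 of 9 for Reep6 passed. The mean of 7 bipolar cell genes, retinal markers, lay between 10.13 and 10.42.

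**Figure D1:**
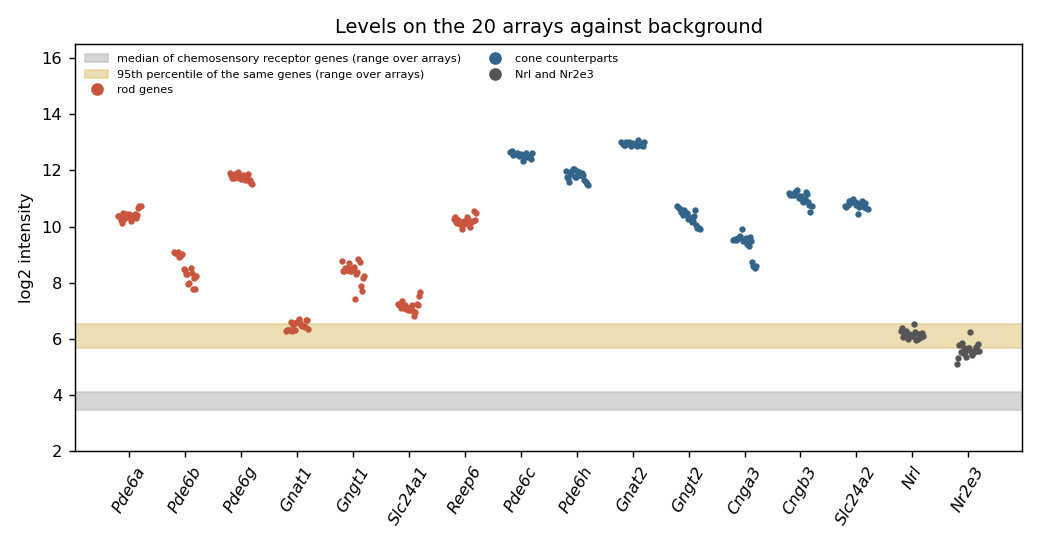
Log2 intensity of the 7 rod genes (red), the 7 cone counterparts (blue) and Nrl and Nr2e3 (grey), 1 point per array in order of age from left to right, with the range over arrays of the median (grey band) and 95th percentile (yellow band) of 869 chemosensory receptor genes. Gnat1, at 6.27 to 6.70, is the rod gene that overlaps the yellow band (5.67 to 6.53), though on each array it was above the percentile of that array. Pde6g, Pde6a and Reep6 stand well above the band.

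The promoters of Pde6b and Gngt1 are shown. Pde6b carries the main result. Of the other rod genes with a promoter in the table used, Gngt1 was called lower at 10 months than at 1 month. That call was lost in some fits given below, and Gngt1 did not pass the limma F test over the ages (adjusted p = 0.0820). Both are RefSeq sequences of build GRCm38.p6, 250 bases before to 50 after the start, read in the direction of transcription. Pde6b lies on chromosome 5 (chr5:108388123-108388422, plus strand) and Gngt1 on chromosome 6 (chr6:3993758-3994057, plus strand). Capitals mark matches, on either strand, to any of 4 motifs: TAATCC (Crx and Otx core), TGCTGA (core of the Nrl response element), AGGTCA (nuclear receptor core site) and CACGTG (E-box).
Pde6b: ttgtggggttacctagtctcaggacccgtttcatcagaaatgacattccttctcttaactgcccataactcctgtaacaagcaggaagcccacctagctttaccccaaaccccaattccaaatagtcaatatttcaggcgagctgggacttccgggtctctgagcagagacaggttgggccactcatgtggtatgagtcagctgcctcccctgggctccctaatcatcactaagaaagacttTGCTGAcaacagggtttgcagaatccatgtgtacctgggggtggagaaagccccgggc
Gngt1: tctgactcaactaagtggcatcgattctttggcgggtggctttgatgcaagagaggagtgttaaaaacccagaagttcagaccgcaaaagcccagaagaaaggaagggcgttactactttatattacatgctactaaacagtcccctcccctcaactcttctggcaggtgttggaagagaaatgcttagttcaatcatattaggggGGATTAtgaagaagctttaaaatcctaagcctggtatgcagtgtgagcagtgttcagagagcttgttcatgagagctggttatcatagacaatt
Pde6b held TGCTGA, with its first base at position -8 from the start site, as did 19.5% of 32817 promoters of this length. Gngt1 held TAATCC on the opposite strand, with its first base at -44, as did 7.06%. Each holds 1 match, so no matches overlap. Only exact matches to these letters were marked, so a site that differs from them by a base is not shown. Whether any site is bound was not tested. In the same window of Slc24a1, on chromosome 9, none of the 4 motifs was found.

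Differences between ages were tested with limma over 11850 genes, the 75% with the higher mean level (log2 limit 5.61), in 1 fit of all 20 arrays, and p-values were adjusted by Benjamini-Hochberg (calls at 0.05). Below, a difference is the later minus the earlier age with its standard error, n = 4 mice per age. All 7 rod genes with probe sets passed the filter. Across the 5 ages 4 of the 7 differed by the F test (Pde6b, Pde6a, Pde6g and Slc24a1), where 38.4% of all genes tested did. The adjusted p was 1.20e-06 for Pde6b and 0.0136, 0.0138 and 0.0218 for Pde6a, Pde6g and Slc24a1. It was 0.0820 for Gngt1, 0.149 for Gnat1 and 0.171 for Reep6. Without replicate 3 or replicate 4 of 10 months Pde6b was the 1 rod gene past the threshold (adjusted p of Pde6a, Pde6g and Slc24a1 from 0.0527 to 0.0743).

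Pde6b, a catalytic subunit of the rod phosphodiesterase, had a lower mean at each later age. At 1 month its level was 9.11, 9.06, 9.05 and 9.11 in the 4 arrays, and at 2 months 8.91, 8.97, 8.99 and 9.03. At 4 months it was 8.48, 8.44, 8.32 and 8.32, and at 6 months 7.94, 8.01, 8.51 and 8.35. At 10 months it was 7.78, 8.16, 7.79 and 8.23. The 1 month arrays were the highest, the 4 month arrays overlapped neither those of 1 or 2 months nor those of 10 months, and the spread was wider at 6 and 10 months (SD 0.27 and 0.24) than at 1 month (SD 0.03). 

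The difference of Pde6b from 1 month was -0.11 ± 0.11 at 2 months (adjusted p = 0.641), -0.69 ± 0.11 at 4 months (adjusted p = 0.000391), -0.88 ± 0.11 at 6 months (adjusted p = 4.05e-05) and -1.09 ± 0.11 at 10 months (adjusted p = 4.97e-07). The last is a 2.13-fold lower intensity. Among the 11850 genes it was the fall of rank 51 at 4 months, 17 at 6 months and 31 at 10 months. At 2 months against 1 month 8.52% of all genes were called and none of the rod genes was. Between 4 and 2 months Pde6b was the rod gene called (-0.59 ± 0.11, adjusted p = 0.0458), where 0.127% of all genes were. That call was lost in each of the 8 fits that left out 1 array (adjusted p from 0.0718 to 0.168, difference -0.62 to -0.56). The Y-linked level, the mean of Eif2s3y and Kdm5d, was 7.33 to 7.63 in the 4 month arrays, against 4.00 to 4.28 in all 2 month arrays, so the step between these ages and that difference cannot be told apart. With this level in the fit Pde6b differed by -0.61 ± 0.20 at 4 against 2 months (adjusted p = 0.224). The difference was close to that without the level, and its standard error was wider. In the 1 month arrays the Y-linked level was 7.93 to 8.28, so age and this level cannot be told apart at 2 months against 1 month either. At 6 against 4 months 0% of all genes were called (530 genes had an unadjusted p under 0.05 in limma), and Pde6b differed by -0.18 ± 0.11 (95% interval -0.42 to 0.05). At 10 against 4 months it fell by 0.40 ± 0.11 (adjusted p = 0.0159), and without replicate 1 or 3 of 10 months the difference was -0.33 (adjusted p = 0.0598 and 0.0550). With the Y-linked level in the fit it was -0.39 ± 0.14 (adjusted p = 0.0621).

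**Figure D2:**
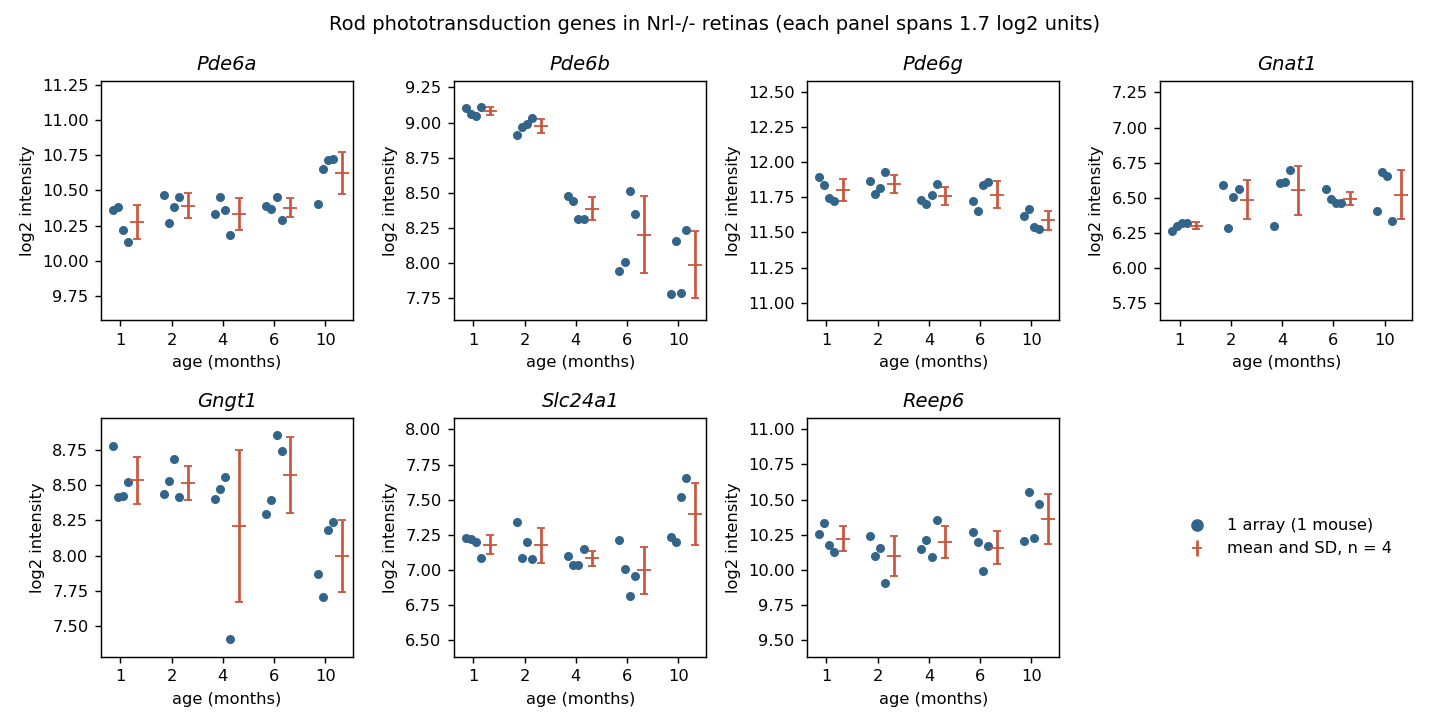
Log2 intensity of each rod gene by age in months, 1 point per array (4 mice per age), with the mean and SD beside the points. Each panel spans the same range of log2 units. Pde6b falls to between 7.78 and 8.23 at 10 months, Pde6a rises at the last age, and 1 array of 4 months lies at 7.40 for Gngt1.

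The probe sets of Pde6b were lower together. In a limma fit over 179496 named probe sets, 24 of the 24 Pde6b probe sets were lower at 4 months than at 1 month and 14 passed the threshold, where 1.64% of all probe sets fell. The differences of single probe sets ranged from -1.22 to -0.32. At 10 months 23 of the 24 passed (-1.81 to -0.47), where 8.97% of all probe sets fell. The probe sets measure 1 RNA population on the same arrays and are not replicates.

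Pde6a, the partner catalytic subunit, was higher at the last age. It measured 10.36, 10.38, 10.22 and 10.13 in the arrays of 1 month and 10.33, 10.46, 10.36 and 10.18 in those of 4 months. At 10 months it was 10.40, 10.65, 10.72 and 10.72. All arrays of 10 months were above those of 1 month. Pde6a rose by 0.35 ± 0.08 at 10 months against 1 month (adjusted p = 0.00161) and by 0.29 ± 0.08 at 10 against 4 months (adjusted p = 0.0126). At 4 months against 1 month it differed by 0.06 ± 0.08 (95% interval -0.11 to 0.22). All 23 Pde6a probe sets were higher at 10 months than at 1 month (0.22 to 0.56), and 12 passed, where 6.45% of all probe sets rose. Fitted with a Y-linked covariate, the difference at 10 months against 1 month was 0.28 ± 0.11 (adjusted p = 0.0591). Those against 4 and 6 months were 0.24 ± 0.10 and 0.19 ± 0.10 (adjusted p = 0.0846 and 0.226). That level was 4.13 and 4.42 in replicates 2 and 3 of 10 months, and 7.40 and 7.72 in the other two.

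The difference between Pde6b and Pde6a was also taken within each array. This pair was chosen after the opposite differences of both genes had been seen, so its values are a description. Pde6b minus Pde6a averaged -1.19 at 1 month, -1.94 at 4 months and -2.63 at 10 months. The change was -1.44 ± 0.12 at 10 months against 1 month, and -0.75 ± 0.08 at 4 months against 1 month.

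**Figure D3:**
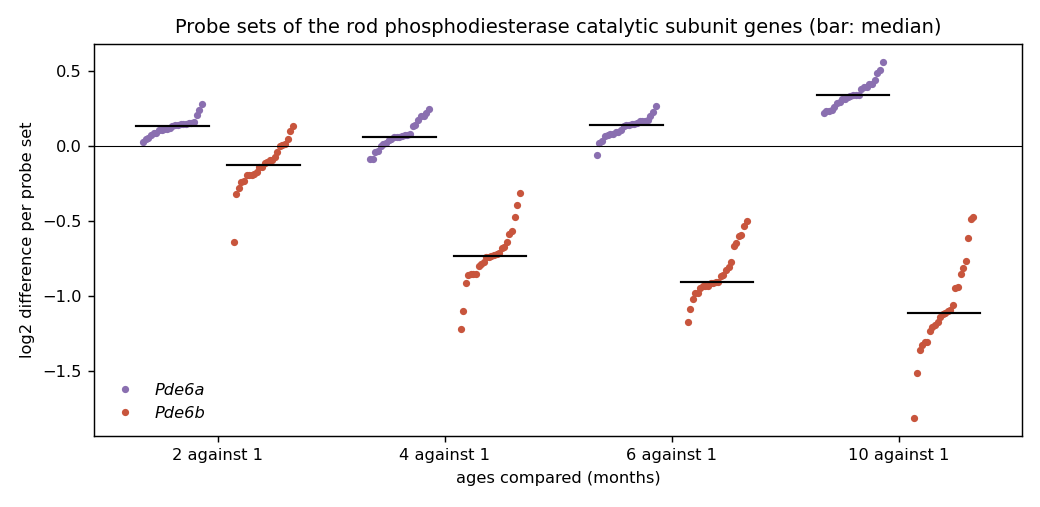
Log2 difference from 1 month of each of the 23 Pde6a probe sets (purple) and 24 Pde6b probe sets (red) at 2, 4, 6 and 10 months, with the median as a bar. From 4 months on all Pde6b probe sets are below 0, and at 10 months all Pde6a probe sets are above 0.

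Pde6g, the inhibitory subunit, was lower at the last age. It measured 11.90, 11.84, 11.74 and 11.73 in the arrays of 1 month and 11.73, 11.70, 11.76 and 11.84 in those of 4 months. The 10 month arrays, at 11.62, 11.67, 11.54 and 11.53, were below all arrays of both. The difference was -0.21 ± 0.06 at 10 months against 1 month (adjusted p = 0.00643) and -0.17 ± 0.06 against 4 months (adjusted p = 0.0423). Pde6g is at percentile 99.3 of all genes, and whether intensity still follows RNA there was not tested. The call against 4 months did not hold when replicate 1, 3 or 4 of either age was left out (adjusted p from 0.0546 to 0.109), and with the brightest probe set the difference was -0.11 against 4 months and -0.13 against 1 month (adjusted p = 0.335 and 0.145). With the Y-linked level in the fit the differences against 4 and 6 months were -0.20 ± 0.07 and -0.21 ± 0.07 (adjusted p = 0.0569 and 0.0622). With the lens level that against 1 month was -0.25 ± 0.10 (adjusted p = 0.0935).

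Gnat1, the rod alpha subunit gene, measured 6.27, 6.30, 6.32 and 6.32 at 1 month, 6.30, 6.61, 6.62 and 6.70 at 4 months and 6.41, 6.68, 6.66 and 6.34 at 10 months. The arrays of 10 months were all above those of 1 month, while those of 4 months overlapped them. Its differences from 1 month were 0.25 ± 0.09 at 4 months (adjusted p = 0.0597) and 0.22 ± 0.09 at 10 months (adjusted p = 0.0542), and it passed in none of the 8 comparisons of 2 ages. With the mean of the probe sets in place of median polish both passed (0.28 and 0.30, adjusted p = 0.0254 and 0.00685). At 10 months 1 of its 10 probe sets passed (0.21 in the median of the 10, up to 1.28), where 6.45% of all probe sets rose. In the fit with a Y-linked covariate the difference at 10 months was 0.01 (adjusted p = 0.945). Without replicate 1 of 4 months the difference at 4 months was 0.34 (adjusted p = 0.0103), and without replicate 1 or 4 of 10 months that at 10 months was 0.26 or 0.28 (adjusted p = 0.0418 and 0.0192).

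Gngt1, the rod gamma subunit gene, measured 8.78, 8.42, 8.42 and 8.52 at 1 month, 8.40, 8.47, 8.56 and 7.40 at 4 months and 8.30, 8.39, 8.86 and 8.74 at 6 months. At 10 months it measured 7.87, 7.70, 8.18 and 8.23, below all arrays of 1, 2 and 6 months. It fell by 0.54 ± 0.20 at 10 months against 1 month (adjusted p = 0.0367) and by 0.57 ± 0.20 at 10 against 6 months (adjusted p = 0.0473). The call against 1 month did not hold when replicate 1 or 4 of 1 month, or replicate 1 or 2 of 10 months, was left out (-0.54 to -0.44, adjusted p from 0.0619 to 0.111). That against 6 months did not hold when replicate 2, 3 or 4 of 6 months, or replicate 1, 2 or 3 of 10 months, was left out (-0.64 to -0.48, adjusted p from 0.0526 to 0.141). In the fit with the Y-linked level neither call held (-0.40 ± 0.28 against 1 month and -0.46 ± 0.25 against 6 months, adjusted p = 0.317 and 0.268). The low array of 4 months, replicate 4, is also the array with the lowest mean correlation with the other arrays (0.985). Without it the difference at 10 against 4 months was -0.48 (adjusted p = 0.0186), and with it -0.21 ± 0.20 (adjusted p = 0.505).

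Slc24a1, the rod sodium, calcium and potassium exchanger gene, was lowest at 6 months and highest at 10 months. It measured 7.10, 7.04, 7.04 and 7.15 at 4 months, 7.21, 7.01, 6.81 and 6.96 at 6 months and 7.23, 7.20, 7.52 and 7.65 at 10 months. The arrays of 10 months were above all of those of 4 months and overlapped those of 6 months. It rose by 0.32 ± 0.10 at 10 against 4 months (adjusted p = 0.0226) and by 0.40 ± 0.10 at 10 against 6 months (adjusted p = 0.00511), and differed by 0.22 ± 0.10 at 10 months against 1 month (adjusted p = 0.0745). That last difference passed without replicate 1 or 2 of 10 months (0.27 and 0.29, adjusted p = 0.0386 and 0.0260). It also passed with the mean of the probe sets in place of median polish (0.26, adjusted p = 0.0435). The rise against 4 months did not pass when replicate 2 or 3 of 4 months, or replicate 3 or 4 of 10 months, was left out (0.23 to 0.30, adjusted p from 0.0557 to 0.0868).

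Reep6 passed in none of the 8 comparisons. It measured 10.20, 10.56, 10.22 and 10.47 at 10 months, against 10.26, 10.33, 10.18 and 10.12 at 1 month, and these arrays overlap. The difference was 0.14 ± 0.09 (95% interval -0.05 to 0.33, adjusted p = 0.223).

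Counted together, 1 of the 7 rod genes fell and 0 rose at 4 months against 1 month, where 15.2% of all genes were called and 8.24% fell. At 6 months against 1 month Pde6b was again the rod gene called, with 16.4% of all genes called. At 10 against 4 months 2 rose (Pde6a and Slc24a1) and 2 fell (Pde6b and Pde6g), with 21.9% of all genes called (10.3% rose and 11.6% fell). At 10 against 6 months 2 rose (Pde6a and Slc24a1) and 2 fell (Pde6g and Gngt1), with 20.3% called. The Pde6a and Pde6g calls at these ages (0.25 ± 0.08 and -0.18 ± 0.06) did not hold when replicate 1, 2 or 4 of 6 months or 2, 3 or 4 of 10 months was left out for Pde6a (adjusted p from 0.0553 to 0.0968), or replicate 3 or 4 of either age for Pde6g (adjusted p from 0.0825 to 0.111). At 10 months against 1 month 1 rose (Pde6a) and 3 fell (Pde6b, Pde6g and Gngt1), with 41.4% called. At these ages the arrays of 5 rod genes did not overlap (Pde6a, Pde6b, Pde6g, Gnat1 and Gngt1), as was so for 35.8% of all genes. The median difference of the 7 genes was -0.04, -0.03 and 0.14 at 4 against 1, 10 against 4 and 10 against 1 month, beside 0.01, 0.02 and 0.04 over all genes tested. Comparisons that share an age share its arrays.

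Markers of other tissue and of other cell types of the retina moved with some ages. The mean level of 7 of 8 pigment epithelium genes ranged from 7.01 to 7.34 at 1 month, from 6.91 to 7.27 at 4 months and from 6.81 to 8.29 at 10 months. It was 8.29, 6.81, 7.79 and 8.20 in replicates 1 to 4 of 10 months, and 3 of its 6 tested genes rose against 1 month, where 20.6% of all genes did. In replicate 2, the low one, Pde6b was 8.16, Pde6a 10.65, Slc24a1 7.20, Pde6g 11.67 and Gngt1 7.70. In replicates 1, 3 and 4 Pde6b was 7.78, 7.79 and 8.23, Pde6a 10.40, 10.72 and 10.72 and Slc24a1 7.23, 7.52 and 7.65. There Pde6g was 11.62, 11.54 and 11.53 and Gngt1 7.87, 8.18 and 8.23. A fit that includes this level was added once the values had been seen. In it the difference at 10 against 4 months was 0.18 ± 0.11 for Slc24a1, -0.25 ± 0.13 for Pde6b and -0.10 ± 0.07 for Pde6g (adjusted p = 0.338, 0.257 and 0.402). Between 10 and 1 month it was -0.96 ± 0.12 for Pde6b and 0.41 ± 0.09 for Pde6a (adjusted p = 1.58e-05 and 0.00208). For Pde6g and Gngt1 the calls were lost (-0.16 ± 0.07 and -0.50 ± 0.24, adjusted p = 0.0784 and 0.125), and Gnat1 gained a call (0.31 ± 0.10, adjusted p = 0.0207). At 10 against 6 months the calls of Slc24a1, Pde6g and Gngt1 were lost (0.28 ± 0.10, -0.12 ± 0.07 and -0.53 ± 0.25, adjusted p = 0.106, 0.298 and 0.193). The mean of 14 lens genes was between 5.40 and 5.86 at 4 months, while at 1 month it averaged 6.64 and its lowest array was 6.25. With the lens level in the fit Pde6b differed by -0.96 ± 0.18 at 4 months against 1 month (adjusted p = 0.0133). Of 10 Muller glia genes 8 rose at 4 months, 8 at 6 months and 9 at 10 months against 1 month, and 0 fell (mean level 9.88 at 1 month, 10.19 at 4 months, 10.23 at 6 months and 10.35 at 10 months). In these comparisons 15.2%, 16.4% and 41.4% of all genes were called in either direction. Of 10 microglia genes 7 rose at 2 months and 4 at 4 months against 1 month, and 6 fell at 10 against 4 months (mean level 7.06 at 1 month, 7.50 at 2 months, 7.30 at 4 months and 6.99 at 10 months). Of all genes 8.52% and 15.2% were called in either direction at 2 and 4 months, and 11.6% fell at 10 against 4 months. The rise of microglia genes at 2 months and the Y-linked difference between these ages cannot be told apart. The part of both lists in the results was not tested.

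The cone counterparts give the same step of the cascade in the cell type that forms in these retinas. Of the 7 cone genes, 4 fell at 10 months against 1 month and 0 rose, where 20.8% of all genes fell and 20.6% rose. Cnga3, the cone channel alpha subunit gene, fell by 0.93 ± 0.07, Gngt2 by 0.67 ± 0.08, Cngb3 by 0.43 ± 0.08 and Pde6h by 0.21 ± 0.07 (adjusted p = 0.0290 for the last). Pde6c differed by -0.14 ± 0.06 (adjusted p = 0.0680), Gnat2 by -0.03 ± 0.05 and Slc24a2 by -0.06 ± 0.08. Gnat2 and Pde6c are above percentile 99.8 of all genes, where whether intensity follows RNA was not tested.

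Set against its cone counterpart within each array, Pde6b changed by -0.96 ± 0.10 relative to Pde6c at 10 months against 1 month and Pde6a by 0.48 ± 0.10 (exact permutation p = 0.0286 and adjusted p = 0.0667 for each, two-sided, n = 4 per age). The raw value is the smallest that 70 splits of 8 arrays allow. Of the 21 tests of 7 gene pairs, the pair of Pde6b and Pde6a included, 9 reached it and none passed after adjustment. With this smallest value the adjustment can be passed only if most of the tests reach it. The failure to pass therefore decides nothing about a pair. Gngt1 relative to Gngt2 changed by 0.13 ± 0.16 and Pde6g relative to Pde6h by -0.00497 ± 0.0537 (exact permutation p = 0.400 and 0.971). For Gnat1 relative to Gnat2 the change was 0.25 ± 0.12 (exact permutation p = 0.114), and for Slc24a1 relative to Slc24a2 it was 0.28 ± 0.18 (exact permutation p = 0.229).

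**Figure D4:**
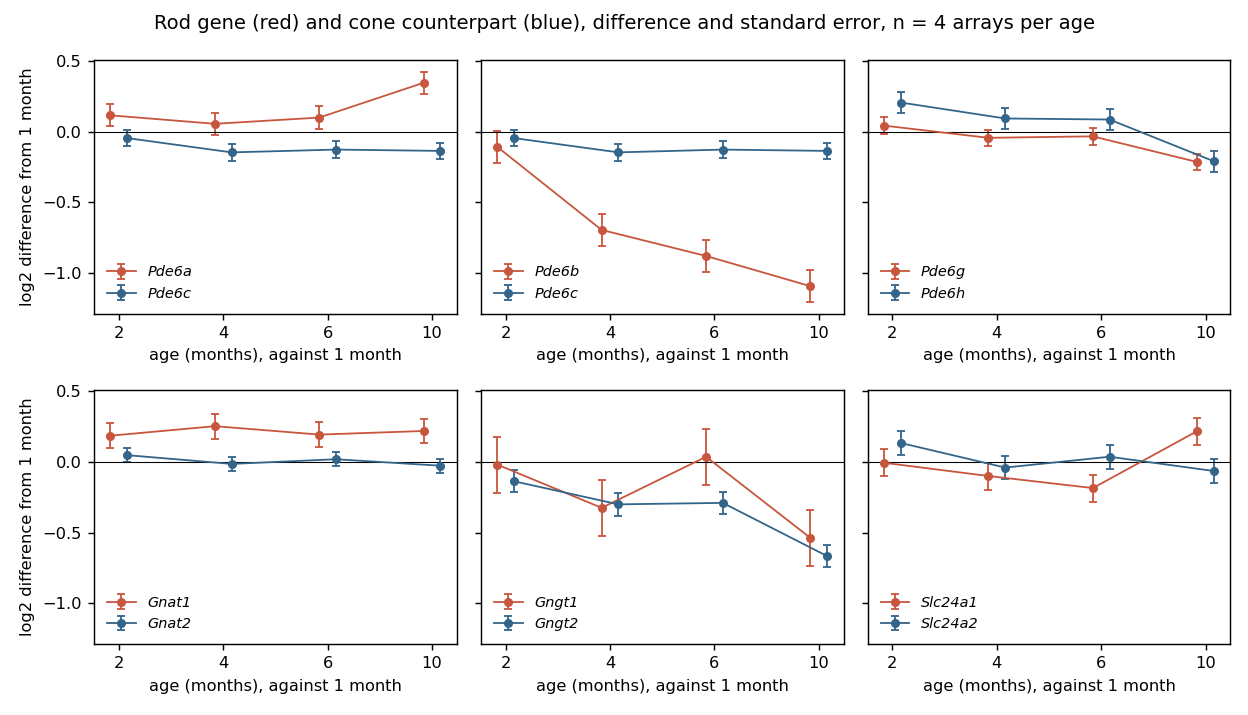
Log2 difference from 1 month, with its standard error, of 6 rod genes (red) and their cone counterparts (blue) at 2, 4, 6 and 10 months, n = 4 arrays per age. Pde6b reaches -1.09 at 10 months while Pde6c is at -0.14, and Gngt1 and Gngt2 are both lowest at 10 months.

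Other genes of the photoreceptor cascade were mostly lower at 10 months than at 1 month. Between these ages 20.8% of all genes fell and 20.6% rose, the shares to set beside each count below. Of 15 tested phototransduction genes outside these lists, 9 fell and 2 rose against 1 month, with a median of -0.26. Those with the largest falls were Guca1b, a guanylate cyclase activator gene (-0.88 ± 0.11), cone arrestin Arr3 (-0.57 ± 0.07), the opsin gene Opn1mw (-0.46 ± 0.06) and recoverin Rcvrn (-0.40 ± 0.08). The 2 that rose, named after their values were seen, were the transducin beta gene Gnb1 (0.30 ± 0.06), whose product pairs with the rod gamma subunit, and Gnb5 (0.24 ± 0.05). Of 7 genes for carriers and chaperones of these proteins, 5 fell and 0 rose, with a median of -0.35. They include Rd3, which acts on guanylate cyclase traffic (-0.80 ± 0.09), Pde6d, which encodes a carrier of prenylated phosphodiesterase (-0.58 ± 0.06), Tulp1, which acts in protein transport to the outer segment (-0.53 ± 0.05) and the transducin carrier gene Unc119 (-0.35 ± 0.05). Of 6 outer segment disc genes 5 fell and 0 rose (median -0.18), among them Prom1 (-0.46 ± 0.07) and Rp1 (-0.44 ± 0.11), with Abca4 and Prph2 at -0.19 ± 0.05 and -0.17 ± 0.06.

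Among the transcription factors of photoreceptors, Esrrb, a nuclear receptor gene expressed in rods, rose by 1.18 ± 0.08 at 4 months and by 1.43 ± 0.08 at 10 months against 1 month. Samd7, a repressor gene of photoreceptors, rose by 0.54 ± 0.15 and 0.56 ± 0.15. The bHLH factor gene Neurod1 and the retinoid receptor gene Rxrg fell by 0.58 ± 0.07 and 0.49 ± 0.06 at 10 months. Crx, the homeobox gene active in both rods and cones, differed by -0.05 ± 0.06 and Nrl by -0.08 ± 0.10 at 10 months (adjusted p = 0.491 and 0.527). Nr2e3 was below the limit for testing.

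The genes most like each called rod gene over the 20 arrays were Moxd1, Clip4 and Bend5 for Pde6b (Pearson r = 0.93, 0.92 and 0.92), Abcg1, Nudcd3 and Lingo3 for Pde6a (0.90, 0.87 and 0.87), Elmod3, Pmvk and Ckmt1 for Pde6g (0.89, 0.88 and 0.88) and Jag2, Tbc1d22a and Ptk7 for Slc24a1 (0.84, 0.82 and 0.80). These describe likeness across arrays that share ages and animals. Between the rod genes themselves, r was 0.67 for Pde6b and Pde6g and -0.45 for Pde6a and Pde6b.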

How the data were processed

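Each array measured ribosome-depleted total RNA of both retinas of a mouse, amplified as sense-strand cDNA, per the labels. The deposited values are log2 intensities per probe set that the authors made with RMA, per the submitters' processing notes. RMA as a method corrects background, quantile-normalizes arrays and summarises probes, which compresses differences of dim probes. No source used here gives other settings or the build of the array design. Precision is limited by 4 arrays per age.

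The gene table gave 1 symbol to 179496 of 194293 probe sets, several to 1328 and none to 13469. Symbols were updated through RefSeq synonyms of GRCm38.p6 (2020 symbols). Probe sets of a gene were summarised by median polish and the dimmest 25% of genes left out. limma 3.58.1 in R 4.3.3 fitted 1 mean per age on all 20 arrays (15 residual degrees of freedom), two-sided, for 8 comparisons and an F test. The steps were tested on simulated data. The members and lists were chosen with earlier results of these data known. Beside all members and cone counterparts, up to 4 genes per list with the largest change were named, and the 3 genes most correlated with each member called by the F test. Alternatives covered probe summary, filters, scaling, weights, covariates, a replicate block and leaving out each array.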

Additional observations from a re-analysis of the deposited data

Results flagged for a closer look

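In Gngt1 at 4 months the array of replicate 4 was at 7.40, while the other arrays of that age lay between 8.40 and 8.56. Its distance from the nearest array was 0.864 of the range of the group, above Dixon's 95% critical value for 4 values. It was the 1 such case among 35 groups of 4 arrays (7 rod genes at 5 ages), and chance flags about 1 in 20 groups.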

How the results depend on the processing

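Pde6b fell at 4, 6 and 10 months against 1 month in every fit tried, except that with a minimum change of 1.5-fold only the fall at 10 months passed. No called difference of a rod gene changed its sign. Of 1501 values of rod genes under the alternatives, 1362 kept their side of the threshold, 113 lost a call and 26 gained one. The count of rod genes that differed at any age, 4, was 2 with the brightest probe set, 7 with array weights and 2 with the pigment epithelium level in the fit (chosen after seeing the data), and 1 to 5 without each array in turn. It was 1 without replicate 3 or replicate 4 of 10 months. At 4 months against 1 month the count of 1 was 2 with the mean of the probe sets or array weights (Gnat1 added), 0 with the minimum change, and 1 to 2 without each array (2 without replicate 1 of 4 months). At 10 against 4 months the count of 4 was 0 with the brightest probe set, the minimum change or a fit of just those 8 arrays, and 1 with the Y-linked or pigment epithelium level. It was 1 to 4 without each array: 2 without replicate 3 of 4 months or replicates 1 or 4 of 10 months, 1 without replicate 3 of 10 months. At 10 months against 1 month the count of 4 was 1 with the minimum change, 2 with the Y-linked level and 3 to 5 without each array. With the mean of the probe sets Gnat1 and Slc24a1 were called as well (0.30 and 0.26, adjusted p = 0.00685 and 0.0435). Array weights added Gnat1 (0.26, adjusted p = 0.0259).

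Over all genes, the 4548 that differed at any age were 2419 with the brightest probe set. The 1796 at 4 months against 1 month were 840 with the brightest probe set, 3028 with array weights, 5 with the minimum change, 242 with the lens level and 1052 with 8 arrays. The 2595 at 10 against 4 months were 1075, 2 and 1101 with the brightest probe set, the minimum change and 8 arrays, and 1141 with the pigment epithelium level. The 4907 at 10 months against 1 month were 79 with the minimum change and 2441 with the lens level. The cause of these moves was not tested, except that 8 arrays give fewer degrees of freedom and the minimum change a stricter test. The replicate numbers gave no pairing (median correlation of deviations -0.03 for equal numbers). With the replicate block the counts were 4, 1, 3 and 4 for any age, 4 against 1, 10 against 4 and 10 against 1 month, Pde6g losing its call at 10 against 4 months. Calls of Pde6b at 4 against 2 months and of Pde6a, Pde6g and Gngt1 at 10 against 6 months were lost too (adjusted p from 0.0521 to 0.0951). Gnat1 and Slc24a1 had no value with a filter of 50%, and the F test none with the minimum change or 8 arrays. Of 92 probe sets of rod genes, 71 were above background on all arrays, 84 against the 75th percentile of receptor probe sets and 55 against the 95th percentile of other tissues.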
